A study of Mus musculus with 14 samples.

Results

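Nuclear receptors are transcription factors, and many of them are switched by small lipid-soluble ligands such as steroids, thyroid hormone, retinoic acid and oxysterols. The 45 genes described here are listed members of the family, taken by name from a table of 35271 Ensembl genes, and all 45 were found. They were measured in 14 single cells labelled as glomerular mesangial cells, from 1 wild-type male mouse of 8 weeks. Its strain is C57BL/6 in the series' design and is spelled C56BL/6 in the sample labels. Glomeruli had been collected by a magnetic bead method and broken up enzymatically, and a Fluidigm C1 system isolated and lysed the cells. All cells form 1 group and share 1 animal, so no conditions were compared and no p-value was computed. Every value describes these cells only, and each cell is named by its label, GL_M_ and a number.

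Mesangial cells are contractile pericyte-like cells that hold the capillary loops of the glomerulus together. Steroid receptors are held ready for hormone by HSP90 complexes, and the glucocorticoid receptor moves from the cytosol to the nucleus when hormone binds. Most receptors for retinoic acid, thyroid hormone, vitamin D, fatty acids and sterols bind DNA as heterodimers with a retinoid X receptor (RXR). A further group, the orphan receptors, works without a known hormone, and includes the COUP-TF proteins. The REV-ERB receptors are repressors of the circadian clock.

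Levels are given as RPKM, the reads on a gene divided by its length and by the cell's read total, which can be compared between genes. A gene was called detected in a cell at an RPKM of at least 1. The cells had read totals of 6.60 M to 23.8 M and 1770 to 5277 detected genes. At these depths an RPKM of 1 stands for about 7 to 356 reads on a nuclear receptor, depending on its exon length and the cell, and 3 reads stand for an RPKM of 0.00843 to 0.402. Of the 9 mesangial markers examined, 6 to 8 were at an RPKM of 10 or more in each cell, and Tbx18 was listed at 0. GL_M_30 also had 10 of 13 endothelial markers at that level, while no other cell had over 5. GL_M_55 had 6 of 12 podocyte markers, while no other cell had over 2. The summed level of the endothelial markers ran from 8.34 to 4128 over the cells and that of the podocyte markers from 0.973 to 2189, with the highest sums in those same cells. The 8 proximal tubule and 8 distal tubule and collecting duct markers were undetected in all 14 cells.

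Of the 45 nuclear receptor genes, 22 (48.9%) were detected in at least 1 cell, beside 29.2 percent of all genes in the table and 41.8 percent of its protein-coding genes. Only 4 (8.89%) were detected in 7 or more cells, near the 9.01 percent of protein-coding genes and the 5.93 percent of all genes that were. Nr2f2 alone was detected in every cell, as were 0.701 percent of protein-coding genes and 0.454 percent of all genes. Without GL_M_30 and GL_M_55 together, a choice made after seeing the data, 21 members were detected in at least 1 cell. With all 14 cells, 18 members were detected in 1 to 6 cells and 23 in none. Of those 23, 12 were listed at 0 in every cell, which is 26.7% of the 45 members, against 44.3 percent of protein-coding genes and 57.1 percent of all genes.

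Most values were 0 or below 1, and those of 1 or more were mostly at 10 or more. Among the 630 values of 45 genes in 14 cells, 449 (71.3%) were 0 and 100 (15.9%) lay above 0 but below 1. Only 23 lay from 1 to below 10, while 26 lay from 10 to below 100 and 32 were at 100 or more. The whole set of genes had the same pattern, so it is not particular to this family. Of all 35271 genes, a cell had a mean of 6221 above 0, 2955 at 1 or more and 1852 at 10 or more.

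**Figure D1:**
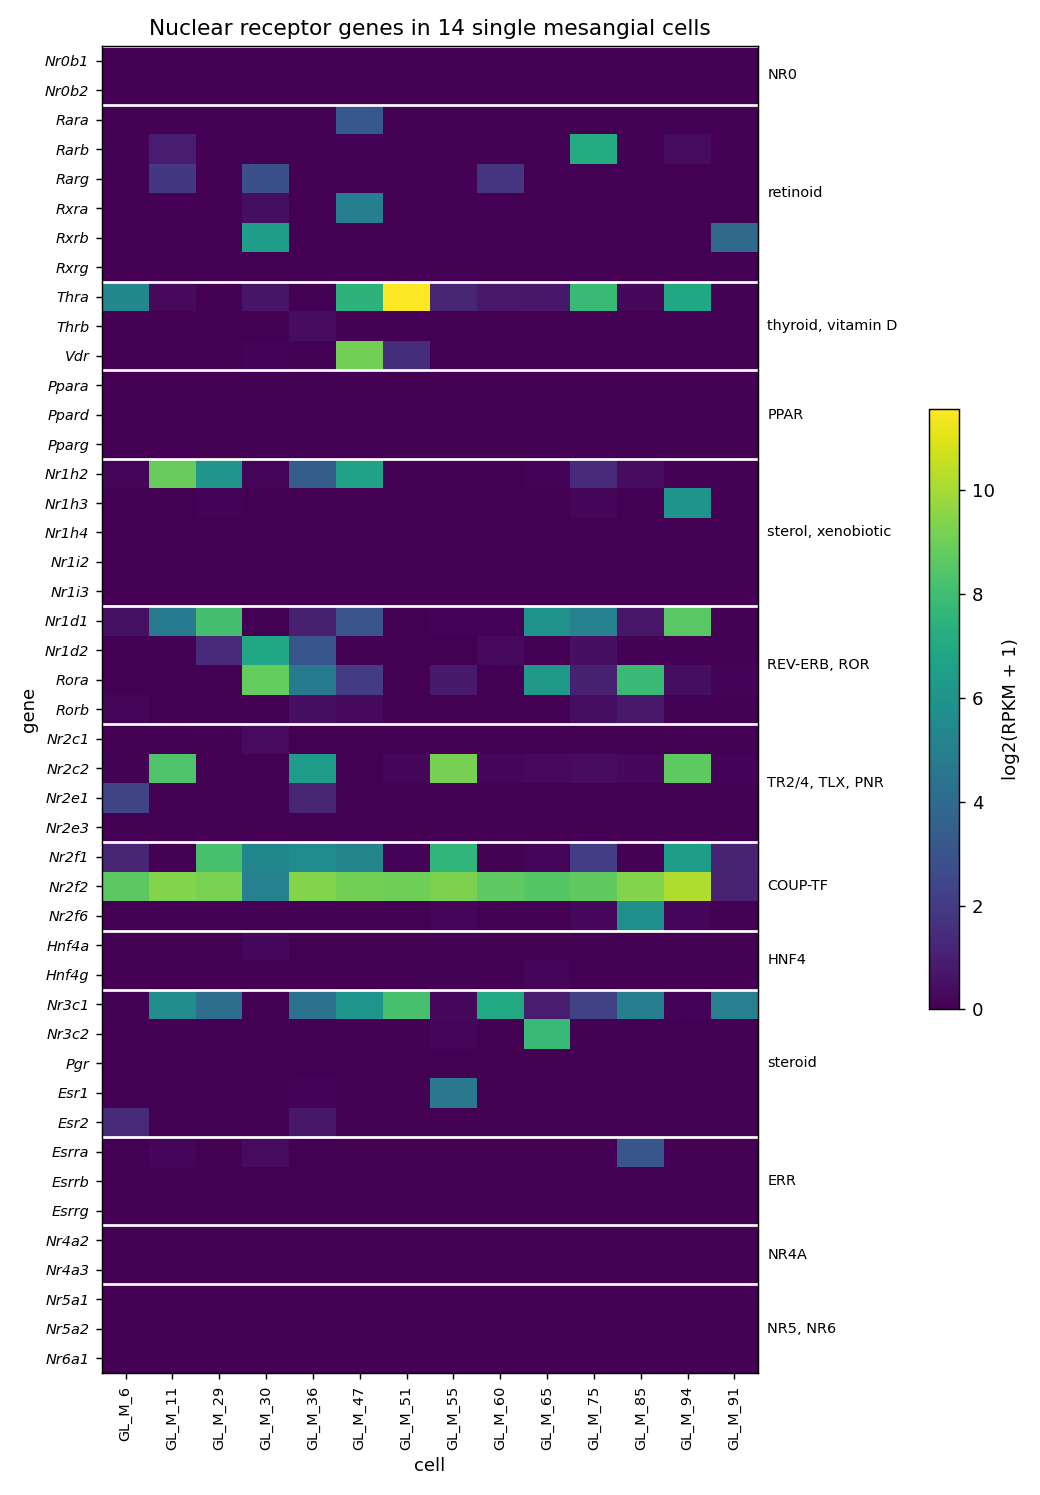
Levels of the 45 nuclear receptor genes (rows, grouped by ligand or subfamily) in the 14 cells (columns), as log2(RPKM + 1) on the colour scale. Nr2f2 is the only row at an RPKM of 1 or more in every cell, with low values in GL_M_30 and GL_M_91. The 23 undetected genes were below an RPKM of 1 in every cell.

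The COUP-TF genes were the most widely detected group. COUP-TF proteins are orphan receptors, and Nr2f2, which encodes COUP-TFII, is known for its role in venous and mesenchymal cells. Within this group detection ran from all 14 cells for Nr2f2 to 9 for Nr2f1 and 1 for Nr2f6. The 250 bases upstream of the RefSeq start, on GRCm38.p6, are shown for Nr2f2 and Nr2f6, to set the most and the least widely detected of the group side by side. Each is written 5′ to 3′ on the gene's strand with CpG dinucleotides, the sites of DNA methylation, in capitals. Nr2f2 is at chr7:70366747-70366996 and Nr2f6 at chr8:71381953-71382202, both on the minus strand.
Nr2f2: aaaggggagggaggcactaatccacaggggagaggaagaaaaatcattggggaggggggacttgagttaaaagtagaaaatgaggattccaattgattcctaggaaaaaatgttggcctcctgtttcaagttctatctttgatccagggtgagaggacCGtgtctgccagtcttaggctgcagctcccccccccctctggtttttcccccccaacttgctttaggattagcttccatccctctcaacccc
Nr2f6: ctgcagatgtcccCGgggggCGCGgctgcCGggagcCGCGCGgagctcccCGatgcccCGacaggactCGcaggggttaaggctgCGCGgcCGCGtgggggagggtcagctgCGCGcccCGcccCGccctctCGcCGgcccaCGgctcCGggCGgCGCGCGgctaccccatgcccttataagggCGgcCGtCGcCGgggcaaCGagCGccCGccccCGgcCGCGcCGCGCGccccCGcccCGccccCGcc
The Nr2f2 stretch held 1 CpG and was 50% G or C, and the Nr2f6 stretch held 42 and was 82.4%. The median over 32851 RefSeq promoter windows was 6 CpG in the same 250 bases. In GENCODE M21 all 250 bases of the Nr2f2 stretch lie in an exon of the antisense gene B130024G19Rik, and 8 bases of the other lie in the first exon of Nr2f6.

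Nr2f2 (ENSMUSG00000030551, chromosome 7, 70351944 to 70366735) had a median RPKM of 522 over the cells, rank 90 by median among 21396 protein-coding genes. Its log2(RPKM + 1) was 8.26 ± 2.36 (mean ± SD, n = 14 cells of 1 mouse), and 8.81 ± 1.21 without GL_M_91. The highest RPKM was 1139 in GL_M_94, followed by 677 in GL_M_85, 671 in GL_M_11, 670 in GL_M_36, 609 in GL_M_55, 604 in GL_M_29 and 539 in GL_M_47. Below these were 505 in GL_M_51, 425 in GL_M_75, 405 in GL_M_60, 397 in GL_M_6 and 363 in GL_M_65. The other cells stood apart below them, GL_M_30 at 32.5 and GL_M_91 at 1.15, about 176 reads. GL_M_30 is the cell with the most endothelial markers. GL_M_91 had 2 of 13 endothelial, 2 of 12 podocyte and 7 of 9 mesangial markers at 10 or more. Whether such markers bear on the low Nr2f2 was not tested. An antisense gene, B130024G19Rik, shares 7.46% of the exon bases of Nr2f2. It was detected in 4 cells and reached 109 in GL_M_85, and whether counting used the strand is not stated in the labels.

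Nr2f1 (chromosome 13, 78188973 to 78199757), which encodes COUP-TFI, was detected in 9 of 14 cells (64.3%, exact 95% Clopper-Pearson interval 35.1% to 87.2%). Its RPKM was 290 in GL_M_29, 191 in GL_M_55 and 87.3 in GL_M_94. Middle levels were 47.4 in GL_M_36, 38.6 in GL_M_30 and 37.2 in GL_M_47. GL_M_75 (3.22), GL_M_6 (1.32) and GL_M_91 (1.20) were just above the limit. The remaining 5 cells were GL_M_65 at 0.145, GL_M_51 at 0.0657, GL_M_60 at 0.0525 and, listed at 0, GL_M_11 and GL_M_85, so the cells with Nr2f1 at 10 or more numbered 6. Its antisense neighbour A830082K12Rik, which shares 2.42% of its exon bases, was at 375 in GL_M_65, where Nr2f1 was at 0.145. It was also at 279 in GL_M_29, 128 in GL_M_30 and 98.7 in GL_M_55, where Nr2f1 was detected. Nr2f6, encoding the EAR2 repressor, was at 55.3 in GL_M_85 and at most 0.175 elsewhere. It shares 54.4% of its exon bases with Ocel1 on the other strand, a gene listed at 0 in every cell.

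**Figure D2:**
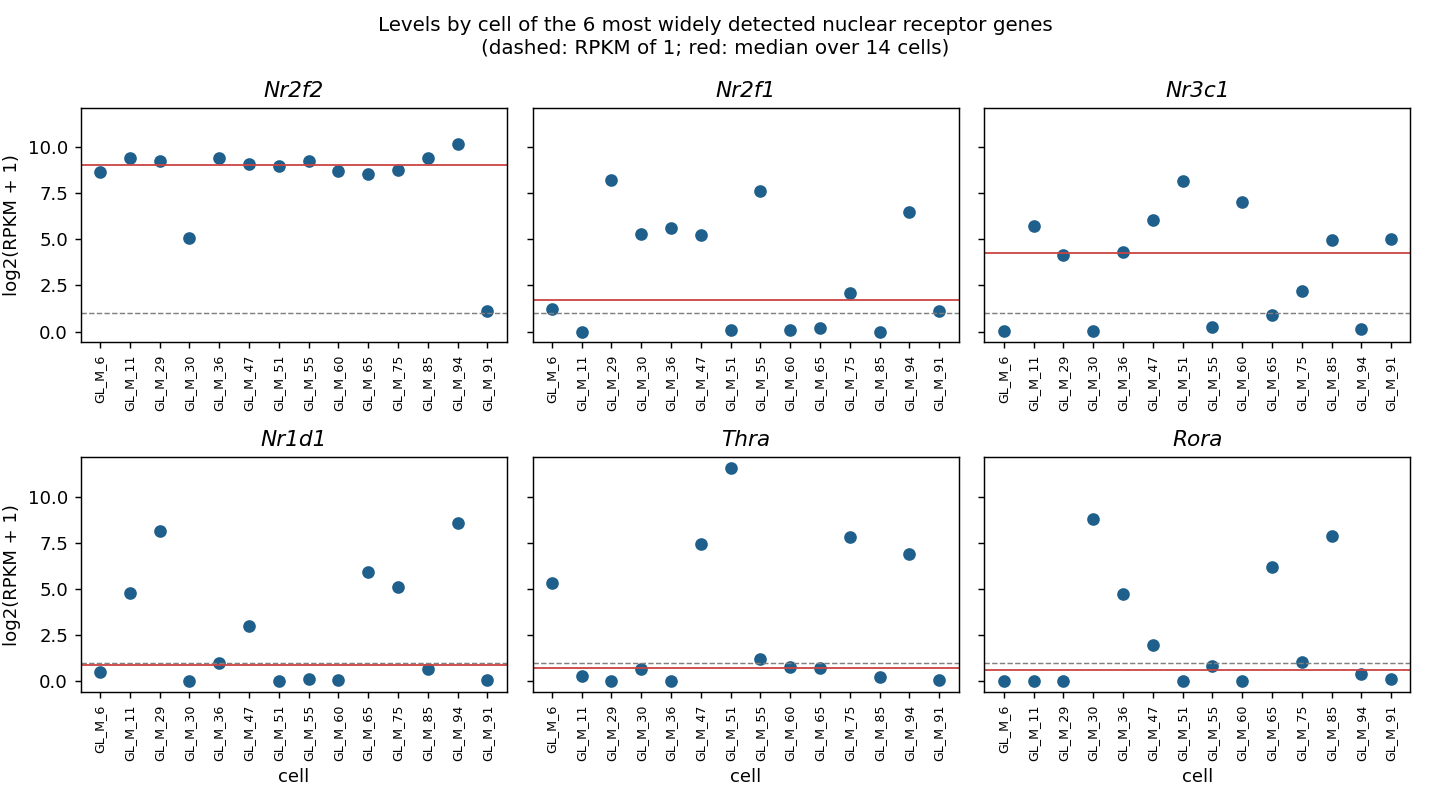
RPKM of the 6 nuclear receptor genes detected in the most cells, as log2(RPKM + 1) per cell, with the median (red line) and the RPKM of 1 used as detection limit (dashed line). Nr2f2 is near its median of 522 in 12 cells and low in GL_M_30 and GL_M_91, while the other genes are split between high cells and cells near 0.

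Among steroid hormone receptors, Nr3c1, the glucocorticoid receptor, was the widely detected one. Nr3c1 (chromosome 18, 39410545 to 39519421) was detected in 9 cells and above 0 in all 14, with a median RPKM of 17.8. Its log2(RPKM + 1) was 3.50 ± 2.85 (mean ± SD, n = 14 cells of 1 mouse). The highest cells were GL_M_51 at 287 and GL_M_60 at 128, followed by GL_M_47 at 65.6 and GL_M_11 at 50.7. GL_M_91 (31.9), GL_M_85 (30.3), GL_M_36 (18.7) and GL_M_29 (17.0) were in the middle and GL_M_75 was at 3.67. The 5 cells below the limit were GL_M_65 at 0.870, GL_M_55 at 0.180, GL_M_94 at 0.0889, GL_M_6 at 0.0422 and GL_M_30 at 0.0268. Nr2f1 and Nr3c1 were detected together in 5 cells, each without the other in 4, and neither in 1.

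Nr3c2, the mineralocorticoid receptor that mediates aldosterone signals, was detected in GL_M_65 alone, at an RPKM of 223 or about 12438 reads. In the other cells it was at most 0.139. In GL_M_65 Nr3c1 was just below the limit, at 0.870 or about 58 reads. Esr1, estrogen receptor alpha, was detected only in GL_M_55, at 23.4, the cell with the most podocyte markers, and was at most 0.0831 elsewhere. Esr2, estrogen receptor beta, reached 1.66 in GL_M_6 and 0.698 in GL_M_36, about 45 reads at its highest. Pgr, the progesterone receptor, was listed at 0 throughout. Of the estrogen-related receptors, orphan regulators of mitochondrial genes, Esrra reached 7.39 in GL_M_85, Esrrb stayed at or below 0.0496 and Esrrg was listed at 0.

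REV-ERB and ROR receptors compete for the same DNA element, REV-ERBs as repressors and RORs as activators of clock genes. Nr1d1 (chromosome 11, 98767932 to 98775333), encoding REV-ERB alpha, was detected in 7 cells, with a median RPKM of 0.817. It was at 382 in GL_M_94 and 281 in GL_M_29, at 60.4 in GL_M_65, 33.9 in GL_M_75 and 26.8 in GL_M_11, and at 6.93 in GL_M_47. GL_M_36 was at the limit with 1.02, and the other 7 cells were GL_M_85 at 0.613, GL_M_6 at 0.424, GL_M_55 at 0.0752, GL_M_60 at 0.0719, GL_M_91 at 0.0644, GL_M_51 at 0.0300 and GL_M_30 at 0. Its upstream window at chr11:98775378-98775627, minus strand, held 7 CpG, close to the median of 6, and is shown as above because Nr1d1 was detected in as many cells as not.
Nr1d1: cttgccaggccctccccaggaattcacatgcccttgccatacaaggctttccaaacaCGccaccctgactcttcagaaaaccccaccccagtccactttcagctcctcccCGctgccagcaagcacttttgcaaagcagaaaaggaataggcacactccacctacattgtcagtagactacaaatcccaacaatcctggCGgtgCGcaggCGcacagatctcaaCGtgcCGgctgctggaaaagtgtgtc
Nr1d2, encoding REV-ERB beta, was detected in 3 cells, at 117 in GL_M_30, 7.47 in GL_M_36 and 1.60 in GL_M_29. Without GL_M_30, its highest value was therefore below 10.

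Rora (chromosome 9, 68653786 to 69388246), encoding ROR alpha, was detected in 6 cells. It was at 447 in GL_M_30, 231 in GL_M_85, 71.6 in GL_M_65 and 25.3 in GL_M_36, with 2.98 in GL_M_47 and 1.09 in GL_M_75. Nr1d1 and Rora were detected together in 4 cells, Nr1d1 without Rora in 3, Rora without Nr1d1 in 2 and neither in 5. GL_M_30, with the highest Rora and Nr1d2, was the cell with Nr1d1 listed at 0. Rorb, a ROR gene of neural tissue, had another pattern, above 0 in 13 of 14 cells but never above 0.742, with a median of 0.0529.

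The gene of thyroid hormone receptor alpha, Thra (chromosome 11, 98740638 to 98769006), had the highest single value of the family. It was at 2994 in GL_M_51, more than Nr2f2 in that cell at 505. Other cells with Thra were GL_M_75 at 223, GL_M_47 at 173, GL_M_94 at 120, GL_M_6 at 39.4 and GL_M_55 at 1.35, making 6 of 14 (42.9%, 17.7% to 71.1%). The remaining 8 cells were at 0.706 or lower. Thra and Nr1d1 lie tail to tail on opposite strands and share 263 exon bases, 5.70% of Thra and 8.55% of Nr1d1. They were detected together in 3 cells, Thra alone in 3, Nr1d1 alone in 4 and neither in 4. In GL_M_51, where Thra was highest, Nr1d1 was at 0.0300. Thrb, the beta receptor, reached only 0.325. Vdr, the vitamin D receptor, was at 538 in GL_M_47, about 38025 reads, and otherwise detected only in GL_M_51 at 1.88.

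Retinoid receptor genes were detected in few cells. Of the retinoic acid receptors, Rarg was detected in 3 cells, at 6.13 in GL_M_30, 2.60 in GL_M_11 and 2.40 in GL_M_60, and listed at 0 in the other 11. Rarb was at 135 in GL_M_75 and at most 0.861 elsewhere. It shares 38.4% of its exon bases with other genes, mostly Top2b on the opposite strand, which was at 0.0972 in GL_M_75. Rara was detected in GL_M_47 alone, at 7.95. Among the RXR genes, Rxra was at 30.8 in GL_M_47, Rxrb at 85.1 in GL_M_30 and 14.7 in GL_M_91, and Rxrg was listed at 0 in every cell. An RXR gene was therefore detected in 3 of 14 cells (21.4%, 4.66% to 50.8%). At least 1 of 14 genes for RXR partners was detected in 11 cells. Both an RXR and a partner were detected in 2 cells, GL_M_30 with Rarg and GL_M_47 with Rara, Thra, Vdr and Nr1h2. Without either of these cells the count is 1.

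The sterol receptors differed between their 2 LXR genes. Nr1h2, encoding LXR beta, was detected in 5 cells. It was at 465 in GL_M_11, 98.9 in GL_M_47, 63.4 in GL_M_29, 9.70 in GL_M_36 and 1.62 in GL_M_75, and at 0.321 or lower in the other 9. Nr1h3, encoding LXR alpha, was at 62.2 in GL_M_94, where Nr1h2 was listed at 0, and at most 0.104 elsewhere. The bile acid receptor gene Nr1h4 reached 0.0264, and the xenobiotic receptor genes Nr1i2 and Nr1i3 were listed at 0. Nr1i3 shares 74.9% of its exon bases with Tomm40l, so its zeros are uncertain. All 3 PPAR genes, Ppara, Ppard and Pparg, whose products sense fatty acids, were listed at 0 in all 14 cells.

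Nr2c2, which encodes the orphan testicular receptor 4, was high in few cells and near 0 in the rest. It was at 575 in GL_M_55, 412 in GL_M_94, 334 in GL_M_11 and 79.9 in GL_M_36, and at most 0.316 in the other 10. Its exons share 31.2% of their bases with other genes, mainly Mrps25, which was listed at 0 in those 4 cells. Nr2e1, encoding TLX of neural stem cells, was detected in GL_M_6 at 4.20, about 126 reads, and in GL_M_36 at 1.32. Nr2c1, the relative of Nr2c2, reached 0.249 in GL_M_30, and Nr2e3 was listed at 0.

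The remaining members were undetected. Hnf4a and Hnf4g, of epithelial cells of gut, liver and proximal tubule, reached 0.187 and 0.120. Nr4a2, an immediate early orphan receptor, reached 0.0541 in GL_M_11 and Nr4a3 was listed at 0. Nr5a1, Nr5a2 and Nr6a1 reached 0.0299, 0.0214 and 0.0229, and Nr0b1 and Nr0b2, which lack a DNA-binding domain, were listed at 0.

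The set of receptors differed from cell to cell. A cell had 3 to 10 of the 45 genes at 1 or more, with a median of 5.5, and 2 to 7 at 10 or more. GL_M_47 had 10 (Nr2f2, Vdr, Thra, Nr1h2, Nr3c1, Nr2f1, Rxra, Rara, Nr1d1 and Rora, in falling order), and GL_M_36 had 9. GL_M_60, the deepest library at 23.8 M reads, had 3 (Nr2f2, Nr3c1 and Rarg). GL_M_51, GL_M_65 and GL_M_91 had 4 each. Nr2f2 was the highest member in 11 cells. The exceptions were GL_M_30 with Rora, GL_M_51 with Thra and GL_M_91 with Nr3c1. The summed RPKM of the family ran from 49.3 in GL_M_91 to 3789 in GL_M_51, and Nr2f2 made up 2.33% to 89.4% of it.

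The number of receptors per cell rose with the number of genes detected in the cell, a count that includes the receptors. Whether other gene sets of this size do the same was not tested, so the relation cannot be called a trait of the family. Pearson's r was 0.91 and Spearman's rho 0.80 over the 14 cells, which come from 1 mouse and share its preparation. Leaving out GL_M_36 and GL_M_47, the cells with the most genes, gave 0.79 and 0.68 over 12 cells. Against the read total the values were -0.37 and -0.37. As a share of the genes detected in a cell, the 45 members took 0.140% to 0.238%, with a median of 0.207%.

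**Figure D3:**
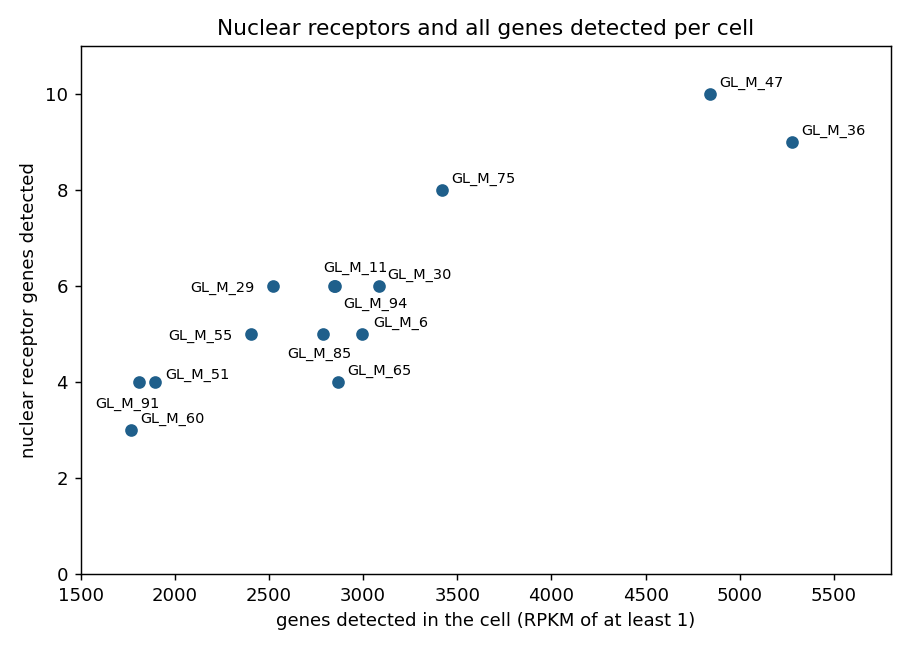
Number of the 45 nuclear receptor genes detected (vertical axis) against the number of all genes detected at an RPKM of at least 1 (horizontal axis), 1 point per cell. GL_M_36 and GL_M_47 are highest on both axes and GL_M_60 is lowest on both, and the points of GL_M_11 and GL_M_94 coincide at 6 nuclear receptor genes.

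The partners and targets of nuclear receptors were described from 5 gene lists. Chaperone genes of the steroid receptor complex were the most widely detected, with 14 of 14 in at least 1 cell and 6 of 14 in 7 or more. Ptges3, the p23 co-chaperone, was at 10 or more in all 14 cells, with a median RPKM of 1833 and a range of 300 to 4715. Hsp90ab1, the constitutive HSP90, was detected in 12 cells, with a median of 866, and was at 0.298 in GL_M_51 and 0.598 in GL_M_55. St13 had a median of 758 and Hspa8 of 115. Of 25 coregulators found (Prmt1 of the list was not matched), 21 were detected in at least 1 cell and 7 in 7 or more. The 4 highest by median were the acetyltransferase gene Crebbp at 149, the ubiquitin ligase gene Trip12 at 92.1, the Mediator subunit gene Med1 at 83.1 and the coactivator gene Ncoa3 at 79.3. The corepressor deacetylase gene Hdac3, the methyltransferase gene Carm1 and the PGC-1 coactivator genes Ppargc1a and Ppargc1b were undetected.

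Genes that make, activate or carry the ligands were almost absent from these cells' detected transcripts. Of 20 such genes, 3 were detected in any cell and 0 in 7 or more. Among them were Aldh1a3, a retinoic acid synthase gene, which reached 45.9 in GL_M_11, and Cyp11a1, a steroid synthesis gene, which reached 1.20 in GL_M_36. Cyp27a1 reached 0.142.

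The clock genes were detected unevenly. Of 15, 12 were detected in at least 1 cell and 2, Per3 and Hlf, in 7 or more. Per3, a period gene, was detected in 10 cells, with a median of 15.6 and a highest value of 291 in GL_M_29. Hlf, a PAR bZIP factor, was detected in exactly 7, with a median of 57.1 and a highest value of 613 in GL_M_60. Bhlhe41 and Tef were detected in 6 cells each. Arntl, the gene of BMAL1 and a classical REV-ERB target, was above 0 only in GL_M_30, at 0.0270, and Nfil3 and Bhlhe40 were undetected as well.

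Of 35 target genes of these receptors, 23 were detected in some cell and 6 in 7 or more. Sgk1, a kinase gene induced by both corticoid receptors, was detected in all 14 cells, with a median RPKM of 181 and a range of 3.997 in GL_M_75 to 3157 in GL_M_91. In the 5 cells with Nr3c1 below 1, Sgk1 was at 2202 (GL_M_94), 1743 (GL_M_30), 1358 (GL_M_65), 176 (GL_M_55) and 28.1 (GL_M_6). Of these, GL_M_65 had the other corticoid receptor gene, Nr3c2, at 223, and no other cell had Nr3c2 detected. In the 9 cells with Nr3c1 detected, Sgk1 ran from 3.997 to 3157, so both sets of cells overlapped over most of the range. Tsc22d3, the glucocorticoid-induced leucine zipper gene, was detected in 8 cells and highest in GL_M_60, at 1528. Fkbp5, a glucocorticoid target named after its values were seen and held by the chaperone list too, was detected only in GL_M_47, at 98.4. Dhrs3, a retinoic acid target, was detected in 10 cells, with a median of 985 and a highest value of 4084 in GL_M_91. Apoe, an LXR target, was detected in 9 cells and reached 1107 in GL_M_6, where Nr1h2 was at 0.102 and Nr1h3 was listed at 0.

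**Figure D4:**
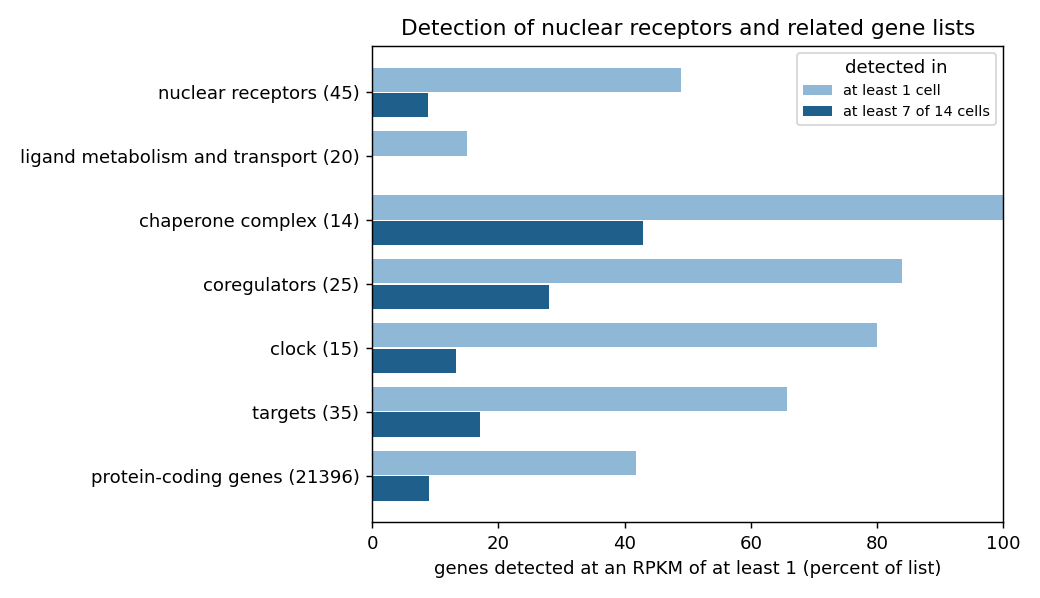
Percent of genes detected at an RPKM of at least 1 in at least 1 cell (light bars) and in at least 7 of 14 cells (dark bars), with the number of genes of each list in parentheses. Nuclear receptors reached 48.9% and 8.89%, and all protein-coding genes 41.8% and 9.01%.

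Promoter windows of 300 bases, from 250 before to 50 after the start, were found in RefSeq for 41 of the 45 members, 62 windows in all. Over the 20 detected members with a window the median G or C content was 61.1% and the median CpG number 17. Over the 21 undetected members these were 55.7% and 11, and over all 32851 windows 52.7% and 7. The ranges overlapped widely, from 49.7% to 82.7% in detected and 42.3% to 81.7% in undetected members. The core motif AGGTCA of many receptors, on either strand, was in 12 of the 62 windows (19.4%) and in 16.3% of all windows. Exon length had a median of 4854 bases over the 22 detected and 4414 over the 23 undetected members.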

How the data were processed

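The deposited values are RPKM per Ensembl gene, made by the authors. TopHat2 2.0.12, HTSeq 0.6.1 and mm10 are named per the submitters' processing notes. Which annotation was counted, whether strand was used, how reads shared by genes were treated and how cells were filtered is not stated there. Symbols, exon lengths and coordinates were taken from GENCODE M21 on GRCm38, the assembly of mm10. Of 35271 gene IDs, 34488 had a symbol there. All 14 value columns matched a cell title.

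The read total of each cell was inferred from step sizes of RPKM at 14953 genes with 1 transcript, where 85.0% to 89.9% of values below 50 reads came within 0.02 of a whole read. On simulated reads for those 14953 genes, 14 of 14 totals came back within 0.1 percent. Read numbers of single genes use exon lengths and are approximate. The cDNA was amplified, so read floors cover the counting of reads only. The exact intervals cover the sampling of cells only, and they treat 14 cells of 1 mouse as independent.

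The pseudocount was 1, and a mean ± SD was computed where no cell was at 0. Cells are not replicates of an animal, so no test was run. Members and lists were chosen with earlier results of these data known. Full values are given for members detected in at least 7 cells and, by their highest cells, for the others. From each list the 4 genes highest by median are named, with undetected genes where 5 or fewer, except 1 gene that is not reported here. Python 3.11.15, pandas 2.3.3 and scipy 1.17.1 were used.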

Additional observations from a re-analysis of the deposited data

How the results depend on the processing

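No paired analysis was possible because all cells form 1 group. Counting any RPKM above 0 as detected gave 11 members in 7 or more cells in place of 4, 2 in every cell in place of 1, and a median of 12.5 members per cell in place of 5.5. It also gave 16 coregulators, 7 clock genes and 13 target genes in 7 or more cells. A limit of 5 left 2 members in 7 or more cells and 0 in every cell, and a limit of 10 left 2 and 0, with an RXR and a partner in 1 cell. Shares of all genes are given only at the limit of 1, so counts at other limits are not set against other genes. A limit of 1 on values rescaled to TPM gave 6 members in 7 or more cells in place of 4. At that limit 3 clock genes in place of 2 and 8 target genes in place of 6 were in 7 or more cells. None of the 11 counts moved by more than 1.5 times. Leaving out 1 cell at a time gave 20 to 22 members in at least 1 cell, 3 to 4 in 7 or more, a median of 5 to 6 per cell, 2 to 3 cells with an RXR and 1 to 2 with a partner too. It gave 1 to 2 clock genes, 1 without any of the 7 cells with Hlf (GL_M_6, GL_M_11, GL_M_30, GL_M_36, GL_M_47, GL_M_55 and GL_M_60), and 4 to 6 chaperone and 5 to 6 target genes. The mean log2 level of Nr2f2 lay between 8.11 and 8.81 and that of Nr3c1 between 3.14 and 3.77. Leaving out GL_M_30 and GL_M_55 together, chosen after seeing the data, left 1 cell with an RXR and a partner and 1 clock gene. A gene below the limit in a cell may still be expressed there, since an RPKM of 1 stands for about 7 to 356 reads on a nuclear receptor.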
